A study of Homo sapiens with 20 samples.

Results

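Bromodomain genes outside the BET family were followed through a BET inhibitor experiment in 2 human cell lines from blood cancers. The members are 36 listed human genes that carry a bromodomain and lie outside the BET family. Of these, 29 had a probe set assigned to that gene alone and were measured, out of 22011 probe sets tested. For KMT2A, with more than 1 such probe set, the one with the highest mean was used. EP300, SP140 and SP140L lie on probe sets assigned to several genes, and ASH1L, BRD7, BRPF3 and TRIM66 are not analysed here. All values are log2 expression values from exon arrays, 1 probe set a gene.

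The lines are Raji, from a Burkitt lymphoma, and LP-1, from a multiple myeloma, and each stands for 1 patient's tumour. Both were given 500 nM of a BET inhibitor or 500 nM of its inactive enantiomer, the mirror-image molecule, and were harvested at 4 or 8 h. Untreated cells of both lines were harvested at 0 h. With 2 biological replicates in each of 10 groups this made 20 arrays. The untreated cells are from 0 h alone, so a difference from untreated cells joins the compound with time in culture. The compound itself is not named in the labels. Values are relative within an array, so less of a gene's RNA per cell and fewer cells that carry it cannot be told apart.

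A bromodomain is a protein fold with a pocket for acetylated lysine, the mark that acetyltransferases put on histone tails. BET proteins use it to bring transcription elongation factors to active genes, and BET inhibitors fill that pocket. Of the other bromodomain proteins, some write acetyl marks themselves (CREBBP, KAT2A, KAT2B), some are scaffolds of acetyltransferase complexes (BRD1, BRPF1, BRD8), and others belong to machines that move nucleosomes (SMARCA2, SMARCA4, PBRM1, BRD9, BPTF and the BAZ genes). A further set are corepressors and nuclear body proteins (TRIM24, TRIM28, TRIM33, SP100, SP110, ZMYND8, ZMYND11). In human cells SP100 and SP110 are nuclear body proteins whose genes respond to interferon.

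The sequences below are shown because SP100 and SP110, from 1 gene cluster on chromosome 2, both passed the test as lower in LP-1 over the mean of both times, and because ZMYND8 was lower in every comparison of inhibitor with enantiomer. They are the 250 bases before annotated starts in RefSeq (GRCh38.p14), written 5′ to 3′ on the gene's strand. In the SP genes the capitals mark a stretch of 15 letters, TTTCACTTCTCTTTT in SP100, which was picked out by reading these windows and searched on both strands with the ninth letter free.
SP100, chr2:230415951-230416200, plus strand: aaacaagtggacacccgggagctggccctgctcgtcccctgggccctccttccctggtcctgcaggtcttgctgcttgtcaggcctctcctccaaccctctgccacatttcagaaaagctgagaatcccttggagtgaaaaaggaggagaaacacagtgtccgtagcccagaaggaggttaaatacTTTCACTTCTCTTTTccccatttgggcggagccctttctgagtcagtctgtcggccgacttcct
SP110, downstream start, chr2:230219985-230220234, minus strand: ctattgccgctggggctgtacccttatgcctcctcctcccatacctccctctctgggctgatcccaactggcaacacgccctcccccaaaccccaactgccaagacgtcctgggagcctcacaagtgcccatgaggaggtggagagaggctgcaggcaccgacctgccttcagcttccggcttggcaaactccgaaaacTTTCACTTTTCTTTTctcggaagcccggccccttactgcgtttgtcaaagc
SP110, upstream start, chr2:230225637-230225886, minus strand: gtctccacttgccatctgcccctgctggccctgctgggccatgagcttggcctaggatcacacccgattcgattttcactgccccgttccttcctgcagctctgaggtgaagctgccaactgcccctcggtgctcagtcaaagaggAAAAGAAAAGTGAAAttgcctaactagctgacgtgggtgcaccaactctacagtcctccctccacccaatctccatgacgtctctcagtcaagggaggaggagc
SP140L, chr2:230326943-230327192, plus strand: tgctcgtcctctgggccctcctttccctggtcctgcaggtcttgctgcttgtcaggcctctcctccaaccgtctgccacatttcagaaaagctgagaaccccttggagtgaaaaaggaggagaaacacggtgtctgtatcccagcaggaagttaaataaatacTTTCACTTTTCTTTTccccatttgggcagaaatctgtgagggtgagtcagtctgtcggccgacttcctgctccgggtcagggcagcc
Among 35116 promoter windows of 300 bases in RefSeq, 5 held the stretch (0.0142%). They belonged to SP100 (1 of 2 windows), SP110 (both windows), SP140 and SP140L. The window of SP140 overlaps the upstream window of SP110 on the opposite strand, and both contain the same copy. The printed windows of SP100 and SP140L also match over long runs outside the capitals. As the stretch was read from SP windows, its presence in them was given in advance, and the share is no test. The stretch began 64 bases before the start of SP100, 51 and 104 bases before the starts of SP110 and 87 bases before the start of SP140L. The interferon response motif (GAAA and GAAA with 2 letters between), searched on both strands, stood in 3.57% of all windows and in none of the SP windows. Other spacings and other interferon motifs were not searched. The capitals in the upstream window of SP110 hold GAAAAGTGAAA, where GAAA and GAAA stand further apart. So the search does not show that these windows lack an interferon motif. These are matches of letters and not sites where a factor is known to bind in these cells.

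For ZMYND8 the capitals mark CCAAT, searched on both strands after this window had been read.
ZMYND8, chr20:47356700-47356949, minus strand: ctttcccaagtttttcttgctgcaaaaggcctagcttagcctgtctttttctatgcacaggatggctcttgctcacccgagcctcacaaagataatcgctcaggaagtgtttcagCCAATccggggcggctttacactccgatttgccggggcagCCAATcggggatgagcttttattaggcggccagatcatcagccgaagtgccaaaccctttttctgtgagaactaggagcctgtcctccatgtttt
CCAAT or its complement stood in 34.6% of all windows and in 7 of 47 windows of measured members. These 47 windows belong to 24 of the 29 measured members, so the motif counts do not cover every measured member. The set of all windows was not limited in the same way. A second window of ZMYND8, at a start further downstream and not printed, holds none. The E-box CACGTG, the core letters bound by MYC, was in 3 of the 47 member windows (PBRM1, the other window of SP100 and ZMYND11) and in 7.26% of all windows.

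Markers of the labelled cell types were compared first. In Raji, 8 of 9 measured B cell markers were higher than in LP-1, among them MS4A1, CD22 and CR2, and 8 of 9 plasma cell markers were lower, among them IRF4 and PRDM1. The exceptions were BACH2 (lower in Raji) and CD38 (higher in Raji). Markers of other cell types were not all low. Of the 7 T and NK cell markers, means in Raji stood between the 7.26 (CD3E) and 61.5 (NKG7) percentiles of all probe sets, and in LP-1 between 6.47 (CD3E) and 59.1 (NCAM1). The 6 epithelial and fibroblast markers ran from 2.39 (EPCAM) to 92.4 (KRT8) in Raji and from 3.09 (EPCAM) to 88.9 (KRT8) in LP-1. The 5 myeloid markers ran from 6.83 (LYZ) to 38.9 (CSF3R) in Raji and from 7.97 (LYZ) to 39.4 (CD14) in LP-1, and both erythroid markers lay under 31.0 in both lines. None of these 4 lists had a gene that passed with the inhibitor over the enantiomer at either time by limma. The mean of the 9 plasma cell markers per array was 8.07 to 8.34 with the inhibitor in LP-1 at 4 h, against 8.55 to 8.68 with the enantiomer, and 7.86 to 8.05 at 8 h, against 8.48 to 8.70. In Raji it was 5.76 to 5.83 with the inhibitor at 4 h, against 6.12 to 6.37 with the enantiomer, and 5.67 to 5.72 at 8 h, against 6.27 to 6.32. The mean of the 9 B cell markers in Raji was 7.77 to 7.81 with the inhibitor at 4 h, against 7.96 to 8.15 with the enantiomer, and 7.59 to 7.74 at 8 h, against 8.19 to 8.21. In LP-1 it was 4.88 to 4.91 with the inhibitor at 4 h, against 5.08 to 5.15 with the enantiomer, and 4.67 to 4.81 at 8 h, against 4.81 to 5.01. The part of these shifts in the results below was not tested. As background, MYC, the growth-driving proto-oncogene, changed by -2.30 to -1.40 and HEXIM1, which holds P-TEFb in an inactive form, by 1.04 to 1.93 over the 4 comparisons of inhibitor with enantiomer. Of the measured BET genes BRD2 rose in 3 of these 4, and BRD3 and BRDT passed in none by limma. The 75th percentile was 6.80 on the first replicate of LP-1 with inhibitor at 4 h, against 7.03 on its replicate. The lowest was 6.75, on the first replicate of Raji with enantiomer at 4 h, against 6.85 on its replicate. On the first replicate of LP-1 with enantiomer at 8 h it was 6.91, against 7.07 on its replicate.

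The first question was which bromodomain genes differ between the active compound and its mirror image at the same dose and time. ZMYND8 fell at 4 and 8 h in LP-1 and in Raji, by 1.92-fold to 2.09-fold. It encodes a chromatin reader that joins corepressor complexes. KAT2A, the acetyltransferase of the SAGA coactivator complex (also called GCN5), fell in Raji at 8 h. SP110 fell in LP-1 at 8 h, where TRIM24 and ATAD2 rose. All 8 members that passed in at least 1 comparison are described in turn below, after the counts.

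Against the enantiomer, 1 of 29 members passed in LP-1 at 4 h (0 higher, 1 lower) at an adjusted p under 0.05 by limma, where 2.28% of all probe sets passed and 1.9% passed as lower. In LP-1 at 8 h 4 passed (2 higher, 2 lower), against 5.73% of all probe sets (3.76% higher, 1.97% lower). In Raji 1 passed at 4 h (lower), against 1.78% (0.341% lower), and 2 at 8 h (both lower), against 1.88% (1.05% lower). Over the mean of both times, 5 passed in LP-1 (1 higher, 4 lower), against 7.06% of all probe sets (2.62% higher, 4.44% lower), and 6 in Raji (4 higher, 2 lower), against 6.29% (4.3% higher, 1.99% lower). After quantile normalization the split was 1 higher and 2 lower in Raji at 8 h, and 3 higher and 3 lower in LP-1 over both times. With counts this small, 1 gene is 3.45% of the members. Over the mean of both times the members' shares were 17.2% in LP-1 and 20.7% in Raji. The shares of all probe sets are not matched to the members in level. A filter on low values left out 7337 of the 22011 probe sets but 2 of the 29 members.

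**Figure D1:**
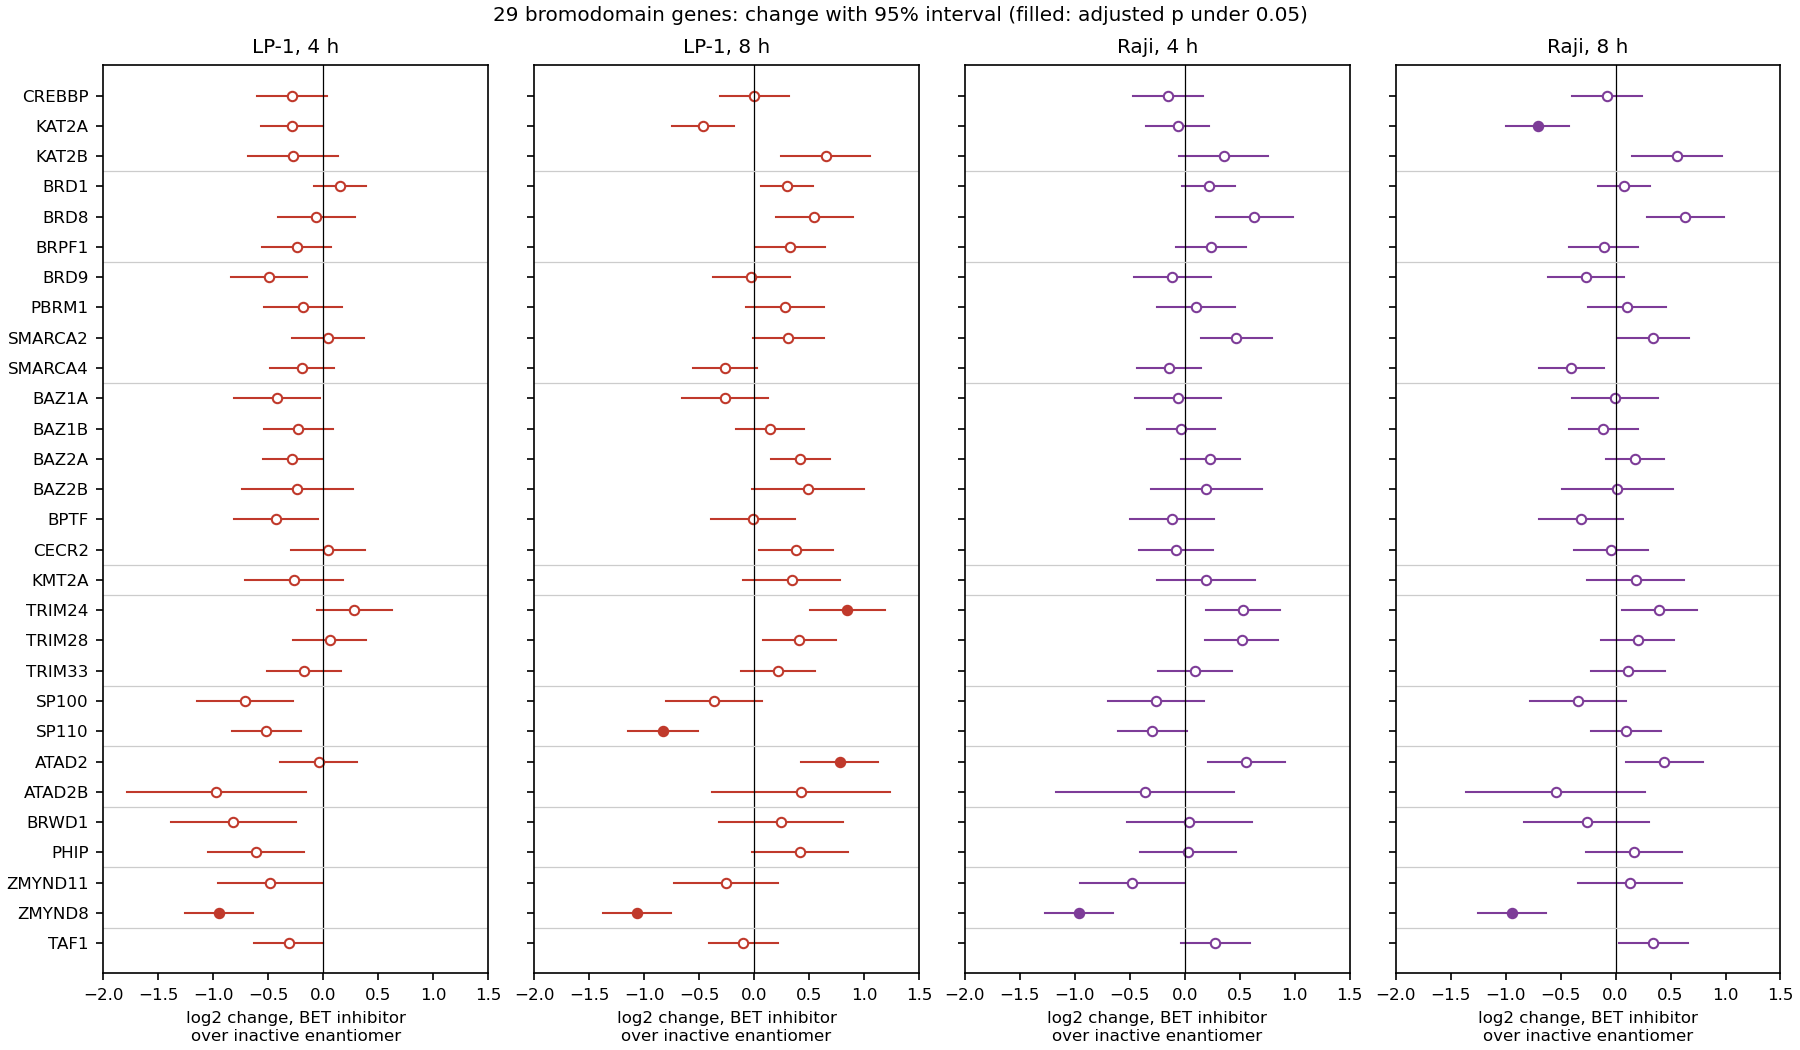
Log2 change with the inhibitor over the enantiomer for each of the 29 measured members in 4 panels (LP-1 and Raji at 4 and 8 h), with points for the estimates and lines for 95% intervals (n = 2 arrays per group). Filled points passed at an adjusted p under 0.05. Grey rules separate the functional groups from acetyltransferases at the top to TAF1 at the bottom. ZMYND8 lies between -1.06 and -0.94 in every panel.

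The median member change in LP-1 was -0.27 at 4 h, with 24 of 29 below 0, and 0.28 at 8 h, with 10 of 29 below 0. All probe sets had medians of -0.04 and 0.06 in those comparisons. Above 0 lay 44.9% and 59.0% of all probe sets, against 5 and 19 of 29 members. In Raji the members' medians were 0.04 and 0.08, against 0.01 and -0.00 over all probe sets. After quantile normalization the LP-1 median at 4 h was -0.08, with 20 of 29 below 0. Without the first inhibitor replicate, whose 75th percentile was low, it was -0.16, also with 20 of 29 below 0, and without the second it was -0.42, with 25. Without the second replicate of the inhibitor at 4 h, 7 members passed in LP-1, all lower, and without the second replicate of the enantiomer none did.

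ZMYND8 had log2 values of 4.62 and 4.67 in LP-1 with the inhibitor at 4 h, against 5.49 and 5.69 with the enantiomer. At 8 h they were 4.55 and 4.25 with the inhibitor and 5.49 and 5.43 with the enantiomer. In Raji at 4 h they were 5.53 and 5.66 with the inhibitor and 6.60 and 6.53 with the enantiomer. At 8 h in Raji they were 5.70 and 5.82 with the inhibitor and 6.83 and 6.58 with the enantiomer. In all 4 pairs of groups both arrays with the inhibitor lay below both arrays with the enantiomer. The untreated arrays were at 6.07 and 5.76 in LP-1 and at 6.88 and 6.92 in Raji, above every array of the same line with either compound.

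The change of ZMYND8 was -0.95 ± 0.14 in LP-1 at 4 h and -1.06 ± 0.14 at 8 h (SE, n = 2 arrays per group, adjusted p = 0.00552 and 0.00136 by limma). In Raji it was -0.97 ± 0.14 at 4 h and -0.94 ± 0.14 at 8 h (adjusted p = 0.00675 and 0.00690). These are falls of 1.92-fold to 2.09-fold. Over the mean of both times the falls were 2.01-fold in LP-1 and 1.94-fold in Raji (adjusted p = 9.62e-05 and 0.000318), and both calls held under all 15 other settings tried. The call at 4 h in LP-1 was lost without the second enantiomer replicate (adjusted p = 0.0820). The call at 4 h in Raji was lost without any 1 of 3 of the 4 arrays compared (highest adjusted p 0.0636), and that at 8 h without either of 2 arrays (highest adjusted p 0.0608).

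The response of ZMYND8 in Raji minus that in LP-1 was -0.02 at 4 h (95% interval -0.46 to 0.42) and 0.12 at 8 h (-0.32 to 0.56). Neither difference passed the test, and the intervals leave room for a difference of up to 0.56 on the log2 scale. Against untreated cells ZMYND8 changed by -1.27 (4 h) and -1.52 (8 h) in LP-1, while Raji had -1.30 (4 h) and -1.14 (8 h), and all 4 calls held under each of their 11 other settings. With the enantiomer alone it differed from untreated cells by -0.33 (4 h) and -0.46 (8 h) in LP-1, and Raji had -0.34 (4 h) and -0.20 (8 h), none of which passed (lowest adjusted p 0.163).

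**Figure D2:**
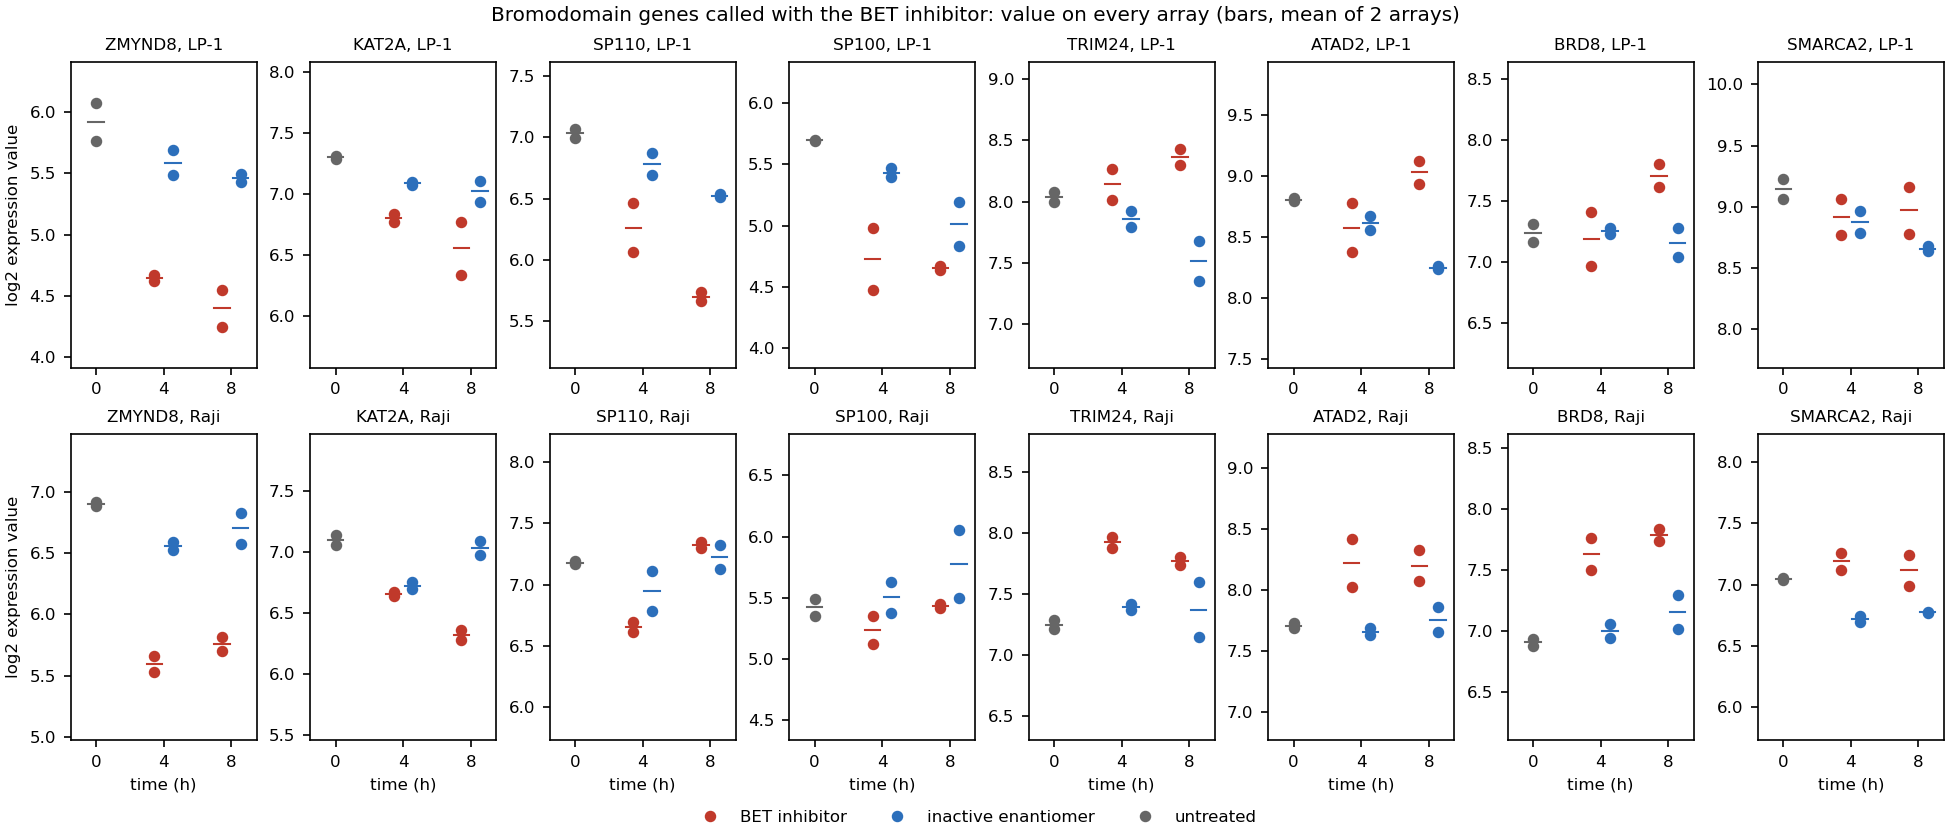
Log2 expression value (y axis) on every array at 0, 4 and 8 h (x axis) for the 8 members that passed in at least 1 comparison of inhibitor with enantiomer, LP-1 above and Raji below. Points are arrays, with the inhibitor drawn left of the enantiomer at each time, and short bars are means of 2 arrays. ZMYND8 sits lower with the inhibitor in all 4 pairs of groups, between 4.25 and 4.67 in LP-1 and between 5.53 and 5.82 in Raji.

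Of the acetyltransferases, KAT2A was lower with the inhibitor and CREBBP and KAT2B did not pass. In Raji at 8 h KAT2A was at 6.28 and 6.36 with the inhibitor, against 6.97 and 7.09 with the enantiomer, a change of -0.71 ± 0.13 (1.64-fold, adjusted p = 0.0173 by limma). At 4 h in Raji the arrays were at 6.64 and 6.67 with the inhibitor and at 6.70 and 6.75 with the enantiomer, and the change was -0.07 ± 0.13. In LP-1 it was at 6.77 and 6.84 with the inhibitor at 4 h, against 7.10 and 7.07 with the enantiomer (-0.28 ± 0.13). It was at 6.77 and 6.34 with the inhibitor at 8 h, against 6.94 and 7.11 with the enantiomer (-0.47 ± 0.13, adjusted p = 0.0586). The 2 groups did not overlap in any of the 4 pairs, not even at 4 h in Raji, where the change was -0.07, so this separation adds little. Over the mean of both times KAT2A changed by -0.37 ± 0.09 in LP-1 and by -0.39 ± 0.09 in Raji (adjusted p = 0.0288 and 0.0258). These calls were near the threshold: the one at 8 h in Raji was lost without each of the 4 arrays in turn (highest adjusted p 0.125), and the means lost theirs in 5 and 7 of 8 such fits.

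CREBBP, the coactivator acetyltransferase also known as CBP, changed by -0.28 (4 h) and 0.00 (8 h) in LP-1, while Raji had -0.15 (4 h) and -0.08 (8 h). KAT2B, the KAT2A paralog in the same type of complex, had changes at 8 h of 0.65 in LP-1 (adjusted p = 0.0644) and 0.56 in Raji (adjusted p = 0.183), and passed in neither.

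Both measured members of the SP100 family were lower with the inhibitor in LP-1. SP110 was at 6.06 and 6.46 with the inhibitor at 4 h, against 6.69 and 6.87 with the enantiomer. At 8 h it was at 5.66 and 5.74 with the inhibitor and at 6.51 and 6.54 with the enantiomer. Both inhibitor arrays lay below both enantiomer arrays at both times. The change was -0.52 ± 0.15 at 4 h (adjusted p = 0.0975) and -0.83 ± 0.15 at 8 h (1.77-fold, adjusted p = 0.00669 by limma). The mean over both times, -0.67 ± 0.10 (adjusted p = 0.00180), kept its call under all 15 other settings.

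In Raji SP110 was at 6.61 and 6.69 with the inhibitor at 4 h, against 6.78 and 7.11 with the enantiomer, and at 8 h at 7.35 and 7.30 against 7.33 and 7.13 with the enantiomer, where the groups overlap. The change over both times was -0.10 (95% interval -0.32 to 0.12). The response in Raji minus that in LP-1 was 0.22 at 4 h and 0.92 ± 0.21 at 8 h (95% interval 0.47 to 1.37), and the difference at 8 h had an adjusted p of 0.108 by limma, so it did not pass over all probe sets.

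SP100 is a component of the nuclear bodies named after PML. It was at 4.47 and 4.98 in LP-1 with the inhibitor at 4 h, against 5.39 and 5.47 with the enantiomer. At 8 h it was at 4.63 and 4.67 with the inhibitor and at 4.83 and 5.19 with the enantiomer. The groups did not overlap at either time. Over both times the change was -0.53 ± 0.14 (1.45-fold, adjusted p = 0.0400), a call lost in 6 of 8 fits without 1 array. In Raji it changed by -0.30 (95% interval -0.61 to 0.01). Against untreated LP-1 cells, at 5.69 and 5.70, SP100 changed by -0.97 and -1.05 at 4 and 8 h and SP110 by -0.77 and -1.34, and all 4 passed. At 4 h each of these calls was lost under 4 of 11 other settings (highest adjusted p 0.142 for SP100 and 0.0926 for SP110). At 8 h that of SP100 was lost under 2 of 11 and that of SP110 under none. The enantiomer arrays of LP-1 at 8 h were also below untreated cells, by -0.68 for SP100 and -0.51 for SP110 (adjusted p = 0.141 and 0.133).

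Of 9 measured interferon-stimulated and nuclear body genes in a separate list (PML, IRF1, IFIT3, MX1 and others), none was lower with the inhibitor in any of the 4 comparisons by time by limma. Of all probe sets, 1.9% and 1.97% passed as lower in LP-1 at 4 and 8 h and 0.341% and 1.05% in Raji, so 0 of 9 is near those shares. The filter on low values kept 6 of the 9. At an unadjusted p under 0.05, in either direction, there were 0 and 2 in LP-1 at 4 and 8 h and 2 and 0 in Raji. No share of all probe sets was taken at that threshold. IRF9, a subunit of the interferon-activated factor ISGF3, rose by 0.74 ± 0.13 at 8 h in LP-1 (adjusted p = 0.00586). At 4 h in Raji it rose by 0.63 ± 0.13 (adjusted p = 0.0296), a call lost in all 4 fits without 1 array. The list's median change in LP-1 was -0.06 at 4 h and 0.22 at 8 h.

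TRIM24, a ubiquitin ligase and corepressor whose bromodomain reads histone H3, was higher with the inhibitor in both lines over the mean of both times. In LP-1 it was at 8.01 and 8.27 with the inhibitor at 4 h, against 7.79 and 7.92 with the enantiomer, and at 8.30 and 8.43 at 8 h, against 7.35 and 7.68. In Raji it was at 7.88 and 7.96 with the inhibitor at 4 h, against 7.37 and 7.42, and at 7.74 and 7.80 at 8 h, against 7.59 and 7.15. All inhibitor arrays lay above the enantiomer arrays of their own time. The change over both times was 0.57 ± 0.11 in LP-1 (1.48-fold, adjusted p = 0.00806, kept under all 15 other settings) and 0.46 ± 0.11 in Raji (adjusted p = 0.0258, lost in 7 of 8 fits without 1 array). At 8 h in LP-1 alone it was 0.85 ± 0.16 (adjusted p = 0.00819).

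Against untreated cells that LP-1 change at 8 h was smaller. Untreated LP-1 cells were at 7.99 and 8.08, above the enantiomer arrays, and the inhibitor differed from them by 0.33 ± 0.16 (adjusted p = 0.266). The enantiomer differed from untreated cells by -0.52 ± 0.16 (adjusted p = 0.148). In Raji, where untreated arrays were at 7.21 and 7.29, the inhibitor differed from them by 0.67 ± 0.16 at 4 h and 0.52 ± 0.16 at 8 h (adjusted p = 0.0585 and 0.118). TRIM28, the KRAB zinc finger corepressor also called KAP1, changed by 0.41 in LP-1 at 8 h and 0.52 in Raji at 4 h, and TRIM33, an E3 ligase of SMAD signalling, by 0.22 and 0.09, and none of these passed.

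ATAD2, an AAA ATPase whose bromodomain binds acetylated histone H4 and whose expression follows DNA replication, was higher in LP-1 at 8 h. The arrays were at 9.12 and 8.93 with the inhibitor and at 8.24 and 8.26 with the enantiomer, a change of 0.78 ± 0.16 (1.72-fold, adjusted p = 0.0144 by limma). At 4 h they were at 8.38 and 8.78 with the inhibitor and at 8.68 and 8.56 with the enantiomer. There the groups overlapped, and the change of -0.04 ± 0.16 turned positive after quantile normalization (0.13). The change at 8 h minus that at 4 h was 0.82 (95% interval 0.33 to 1.32, adjusted p = 0.159). Untreated LP-1 cells were at 8.82 and 8.79, and the inhibitor at 8 h differed from them by 0.22 ± 0.16 and the enantiomer by -0.56 ± 0.16 (adjusted p = 0.501 and 0.135). As for TRIM24, the enantiomer arrays at 8 h stood below untreated cells. The call was lost in 3 of 4 fits without 1 array (highest adjusted p 0.111).

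In Raji ATAD2 was at 8.02 and 8.41 with the inhibitor at 4 h, against 7.69 and 7.63 with the enantiomer, and at 8.07 and 8.33 at 8 h, against 7.86 and 7.66. All 4 inhibitor arrays were above all 4 enantiomer arrays and above the untreated arrays at 7.73 and 7.69. Over both times the change was 0.50 ± 0.11 (1.42-fold, adjusted p = 0.0203, lost in 4 of 8 fits without 1 array). Of 12 measured replication genes 1 passed in LP-1 at 8 h (CCNE2, cyclin E2, 0.66 ± 0.18), where 5.73% of all probe sets passed and 3.76% as higher, and 1 in Raji at 4 h (CCNE1, 0.76 ± 0.17), where 1.78% passed. None passed as lower, and neither count was above 0 in any fit without 1 array. ATAD2B, its paralog, ranged over 1.44 to 3.41 in LP-1 and 2.34 to 3.50 in Raji, near the bottom of the arrays, and passed in none.

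BRD8, a subunit of the NuA4/TIP60 acetyltransferase complex, was higher in Raji. It was at 7.50 and 7.76 with the inhibitor at 4 h, against 6.95 and 7.05 with the enantiomer, and at 7.74 and 7.84 at 8 h, against 7.29 and 7.02. Every inhibitor array stood above all enantiomer arrays and above untreated cells at 6.88 and 6.94. Over both times the change was 0.63 ± 0.11 (1.55-fold, adjusted p = 0.00608), and the call held under all 15 other settings. At single times the change was 0.63 at both, with adjusted p = 0.0729 and 0.0727.

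In LP-1 BRD8 was at 6.97 and 7.41 with the inhibitor at 4 h, against 7.24 and 7.28 with the enantiomer, and at 7.62 and 7.80 at 8 h, against 7.04 and 7.28. The change was -0.06 at 4 h (0.17 after quantile normalization) and 0.55 ± 0.16 at 8 h (adjusted p = 0.0703). The response in Raji minus that in LP-1 was 0.69 at 4 h (95% interval 0.20 to 1.19, adjusted p = 0.196) and 0.08 at 8 h (-0.41 to 0.58). BRD1 and BRPF1, scaffolds of the KAT6 and KAT7 acetyltransferases, changed by 0.30 and 0.33 in LP-1 at 8 h, while Raji had 0.08 and -0.11 at that time, and did not pass against the enantiomer.

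Among the nucleosome remodellers, SMARCA2 (BRM), 1 of the 2 alternative motors of the SWI/SNF complexes, was higher in Raji over both times. It was at 7.12 and 7.26 with the inhibitor at 4 h, against 6.74 and 6.70 with the enantiomer, and at 6.99 and 7.25 at 8 h, against 6.78 and 6.77. The groups did not overlap, and the change over both times was 0.41 ± 0.11 (1.33-fold, adjusted p = 0.0394). Untreated Raji cells were at 7.05 and 7.04, from which the inhibitor differed by 0.15 and 0.07 and the enantiomer by -0.32 and -0.27 at 4 and 8 h. The call was lost in 7 of 8 fits without 1 array. SMARCA4 (BRG1), the other motor, changed by -0.15 at 4 h (adjusted p = 0.722) and -0.40 at 8 h (adjusted p = 0.184) in Raji, and by -0.19 and -0.26 in LP-1.

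The other remodellers passed in no comparison of inhibitor with enantiomer. The members related to ISWI (BAZ1A, BAZ1B, BAZ2A, BAZ2B, BPTF and CECR2) ranged in LP-1 over -0.43 to 0.04 (4 h) and -0.26 to 0.49 (8 h). Their range in Raji was -0.12 to 0.23 (4 h) and -0.31 to 0.18 (8 h). PBRM1 and BRD9, subunits that define the PBAF and ncBAF forms of SWI/SNF, lay between -0.49 and 0.28. KMT2A, the histone methyltransferase also called MLL1, lay between -0.27 and 0.34, and TAF1, the large subunit of TFIID, between -0.32 and 0.34. BRWD1 and PHIP, proteins with WD repeats, changed at 4 h in LP-1 by -0.82 (adjusted p = 0.149) and -0.61 (adjusted p = 0.164), and at 8 h by 0.25 and 0.42. For BRWD1 the first inhibitor replicate at 4 h was at 4.85 and the second at 5.81, against 6.26 and 6.02 with the enantiomer. ZMYND11, a reader of a histone variant methylated at lysine 36, changed by -0.49 (4 h) and -0.25 (8 h) in LP-1, while Raji had -0.48 (4 h) and 0.13 (8 h), and did not pass.

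No member passed as different in response between lines, where 0.114% of all probe sets passed at 4 h and 0.245% at 8 h, or between times, where 0% passed in either line. At an unadjusted p under 0.05 there were 8 and 1 members between lines at 4 and 8 h, and 10 and 1 between times in LP-1 and Raji. All probe sets were not counted at this unadjusted threshold, so the shares above are no background for these counts. At 4 h the difference between lines was above 0 for 27 of 29 members and for 57.6% of all probe sets. The members' median was 0.38, against 0.09 over all probe sets. After quantile normalization the median was 0.07, with 19 of 29 above 0 (-0.04 over all probe sets), and with arrays centred on their medians it was 0.27, with 24 above 0. Without the first inhibitor replicate of LP-1 it was 0.18, with 25 above 0. Without the first and second enantiomer replicates of Raji in turn it was 0.32 and 0.39, with 28 and 25 above 0.

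A second question was what the inactive compound itself did. By limma 0 of 29 members passed in the enantiomer over untreated cells, where 0.0136% and 0.504% of all probe sets passed in LP-1 at 4 and 8 h and 0% in Raji at both times. At an unadjusted p under 0.05 there were 1 and 9 members in LP-1 and 4 and 0 in Raji, with no count of all probe sets at that threshold to set beside them. In LP-1 at 8 h 27 of 29 members lay below untreated cells and 2 above, where 38.7% of all probe sets lay above. The members' median was -0.26, against -0.08 over all probe sets, and their range was -0.97 to 0.10. After quantile normalization the median was -0.07, with 19 of 29 below (0.01 over all probe sets), and with arrays centred on their medians it was -0.15, with 23 below. Without the first and second enantiomer replicates in turn it was -0.21 and -0.30, with 25 and 28 below.

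Comparisons with untreated cells join the compound with time in culture. With the inhibitor, 7 of 29 members passed as lower than in untreated LP-1 cells at 4 h (6.73% of all probe sets passed, 6% as lower). They were ZMYND8, SP100, SP110 and KAT2A, and also BPTF (-0.68), BRWD1 (-1.03) and TAF1 (-0.52). The count was 3 after quantile normalization. It was 1 without the first inhibitor replicate or without either untreated replicate, and 10 without the second inhibitor replicate. At 8 h 5 passed in LP-1 (7.66% of all probe sets, 1.97% higher and 5.68% lower): the same first 4 genes lower, and BRD1 higher by 0.40 ± 0.11. After quantile normalization the split was 3 higher and 4 lower. In Raji 1 passed at 4 h (1.26%, 0.595% lower), ZMYND8, and 3 at 8 h (2.26%, 1.04% higher and 1.22% lower), with ZMYND8 and KAT2A (-0.78 ± 0.13) lower and BRD8 higher (0.88 ± 0.16, adjusted p = 0.0143). The calls of KAT2A and BRD8 in Raji at 8 h were lost without each of the 4 arrays in turn (highest adjusted p 0.105 and 0.113). That of KAT2A in LP-1 at 4 h was lost under 8 of 11 other settings (highest adjusted p 0.493), and at 8 h under 1 of 11. The Raji splits were 2 higher and 2 lower at 4 h and 2 higher and 3 lower at 8 h after quantile normalization, and 1 and 1 at 4 h with arrays centred on their medians.

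Partners of the bromodomain proteins were counted from lists of complex subunits. Of 20 measured partners of acetyltransferase complexes, 5 fell and none rose with the inhibitor in LP-1 at 4 h, where 2.28% of all probe sets passed and 1.9% as lower. The count rested on single arrays: in fits chosen after the data were seen it was 0 without either enantiomer replicate, 1 without the first inhibitor replicate and 4 without the second, and 3 after quantile normalization, centring or the replicate block. The 5 were JADE1 (-1.07 ± 0.16) and JADE2 (-0.59 ± 0.14), scaffolds of the KAT7 complex, KAT5 (-0.72 ± 0.15), the TIP60 enzyme that works with BRD8, TAF5L (-0.81 ± 0.17), a SAGA subunit, and ZZZ3 (-0.81 ± 0.15), a subunit of the KAT2A complex ATAC. At 8 h JADE1 fell (-0.63 ± 0.16) and KAT6A, the enzyme scaffolded by BRPF1 and BRD1, rose (0.71 ± 0.17). In Raji JADE2 fell at 4 and 8 h (-0.66 and -0.63). Without 1 array at a time, 0 to 1 partners passed in LP-1 at 8 h and in Raji at 4 h, and none in Raji at 8 h. The list's median in LP-1 at 4 h was -0.27, and -0.11 after quantile normalization.

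Of the measured partners of SWI/SNF (16) and ISWI (7) none passed in the 4 comparisons by time by limma. At an unadjusted p under 0.05 there were 1, 3, 0 and 1 SWI/SNF partners and 2, 1, 0 and 1 ISWI partners in LP-1 at 4 and 8 h and Raji at 4 and 8 h. The share of all probe sets at this threshold was not counted. Among 15 histone deacetylases and sirtuins, the erasers of acetyl marks, SIRT1 rose by 0.82 ± 0.14 (4 h) and 1.37 ± 0.14 (8 h) in LP-1, and at 4 h in Raji by 0.99 ± 0.14. Its call at 4 h was lost without either enantiomer replicate in LP-1 and without the second inhibitor replicate in Raji. SIRT7 rose by 0.73 ± 0.17 in LP-1 at 8 h. These 2 of 15 genes stand against 3.76% of all probe sets that passed as higher there. The list's count was lower in most fits without 1 array, and which gene dropped out was not followed. At 4 h 1 of 15 passed in each line, against 2.28% of all probe sets in LP-1 and 1.78% in Raji. No HDAC gene passed at a single time. Of 3 measured genes with a YEATS domain, another reader of acyl-lysine, MLLT3 fell by 0.76 ± 0.13 in LP-1 over both times and rose by 0.61 ± 0.13 in Raji. The difference between these changes was not tested, and this list was not followed in fits without 1 array.

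The third comparison set the lines against each other. In Raji over LP-1, averaged over the 5 matched conditions, 24 of 29 members passed (13 higher, 11 lower), against 42% of all probe sets (16.5% higher, 25.5% lower). In untreated cells alone 15 passed (8 higher, 7 lower), against 24.3% (6.79% higher, 17.5% lower). Neither share of all probe sets is matched to the members in level. After quantile normalization the untreated split was 12 higher and 6 lower, and without 1 untreated array 9 to 11 members passed. Centring each array on its median moved the median of all probe sets in untreated cells to 0.11, against -0.03 as deposited. CREBBP and KAT2B were lower in Raji, as was KAT2A, whose call was lost after quantile normalization and after centring (-0.04 and -0.07), like that of BRD9 (-0.09 and -0.10). Of the other SWI/SNF members SMARCA2 was lower and SMARCA4 and PBRM1 were higher. BAZ2A and TAF1 passed as higher after quantile normalization alone (0.15 and 0.21).

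**Figure D3:**
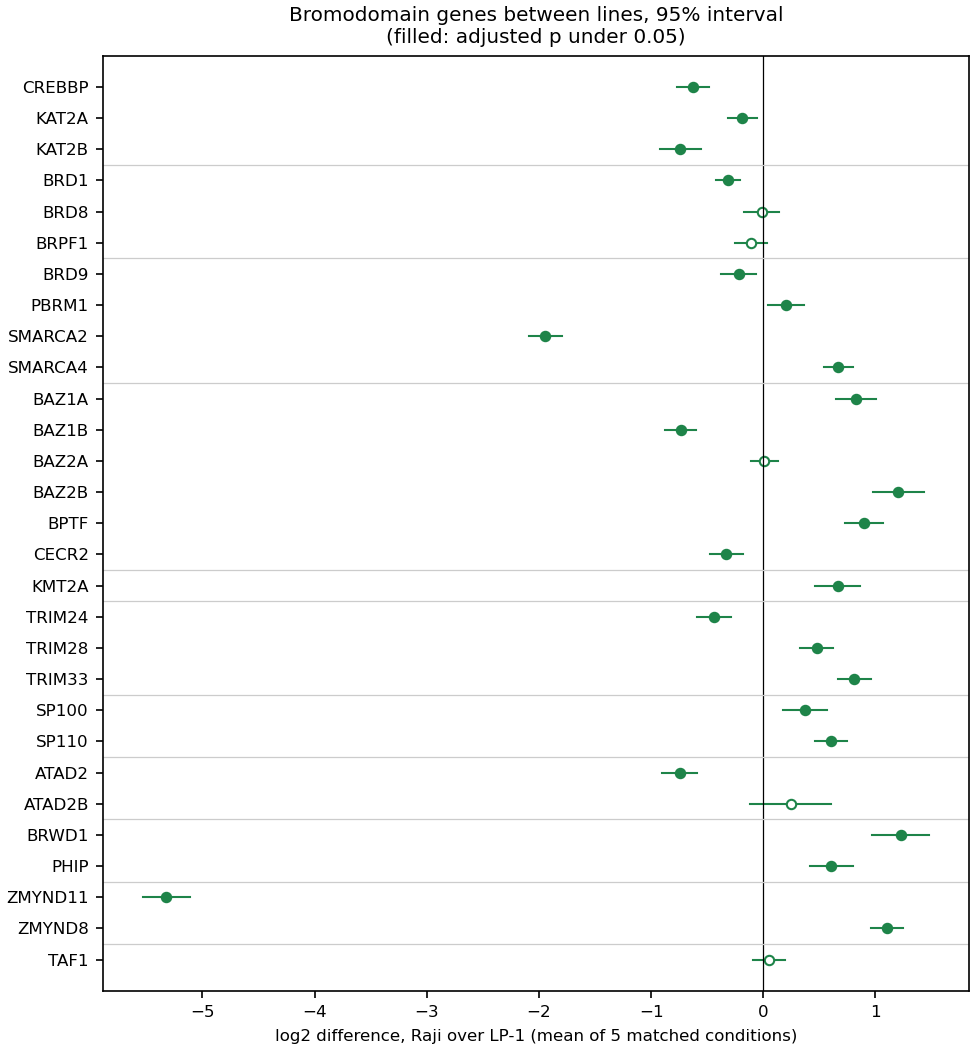
Log2 difference of Raji over LP-1 (x axis), averaged over 5 matched conditions (10 arrays per line), for each measured member, with 95% intervals. Filled points passed at an adjusted p under 0.05. ZMYND11 at -5.32 and SMARCA2 at -1.94 lie far to the left, and the other members lie between -0.75 and 1.23.

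ZMYND11 had the largest difference. Its log2 values in Raji were 2.74 at the lowest, 3.10 at the median and 3.53 at the highest of 10 arrays, against 7.87, 8.52 and 8.96 in LP-1. No Raji array came within 4 log2 units of an LP-1 array. The difference was -5.32 ± 0.10 as measured (adjusted p = 8.44e-14 by limma). The Raji mean stood at the 17.1 percentile of all probe sets on the arrays and the LP-1 mean at 88.2. The T cell gene CD3D stood at the 18.4 percentile in Raji, and no test against background was made, so the value of ZMYND11 in Raji may not be a measured level and no fold is given. SUPT3H, a SAGA subunit in the list of partners, differed by -4.78 ± 0.09. It was named after its value was seen. Its level in Raji is not given and was not tested against background, so the same limit holds.

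SMARCA2 ranged over 6.70, 7.01 and 7.26 in Raji (lowest, median, highest), against 8.63, 8.87 and 9.23 in LP-1, with no overlap, and differed by -1.94 ± 0.07 (3.85-fold, adjusted p = 3.58e-11). SMARCA4 ran the other way, by 0.67 ± 0.06 (1.59-fold, adjusted p = 7.02e-07). Its lowest value in Raji was 8.38 and its highest in LP-1 was 8.37. The 2 SWI/SNF motors differed between the lines in opposite directions, each with no overlap.

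ZMYND8 ranged over 5.53, 6.55 and 6.92 in Raji and 4.25, 5.46 and 6.07 in LP-1, and these ranges overlapped. The difference was 1.10 ± 0.06 (2.15-fold, adjusted p = 7.91e-09). BRWD1 was higher in Raji by 1.23 ± 0.12 (6.79, 7.23 and 7.44, against 4.85, 6.01 and 6.41 in LP-1). BAZ2B was higher by 1.20 ± 0.11 (5.68, 5.95 and 6.30, against 4.22, 4.88 and 5.11). BPTF, the histone reader of the NURF remodeller, was higher by 0.90 ± 0.08 (8.44, 8.73 and 9.01, against 7.39, 7.87 and 8.22). For these 3 genes every Raji array was above every LP-1 array. All 6 differences kept their call under each of 26 other settings.

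**Figure D4:**
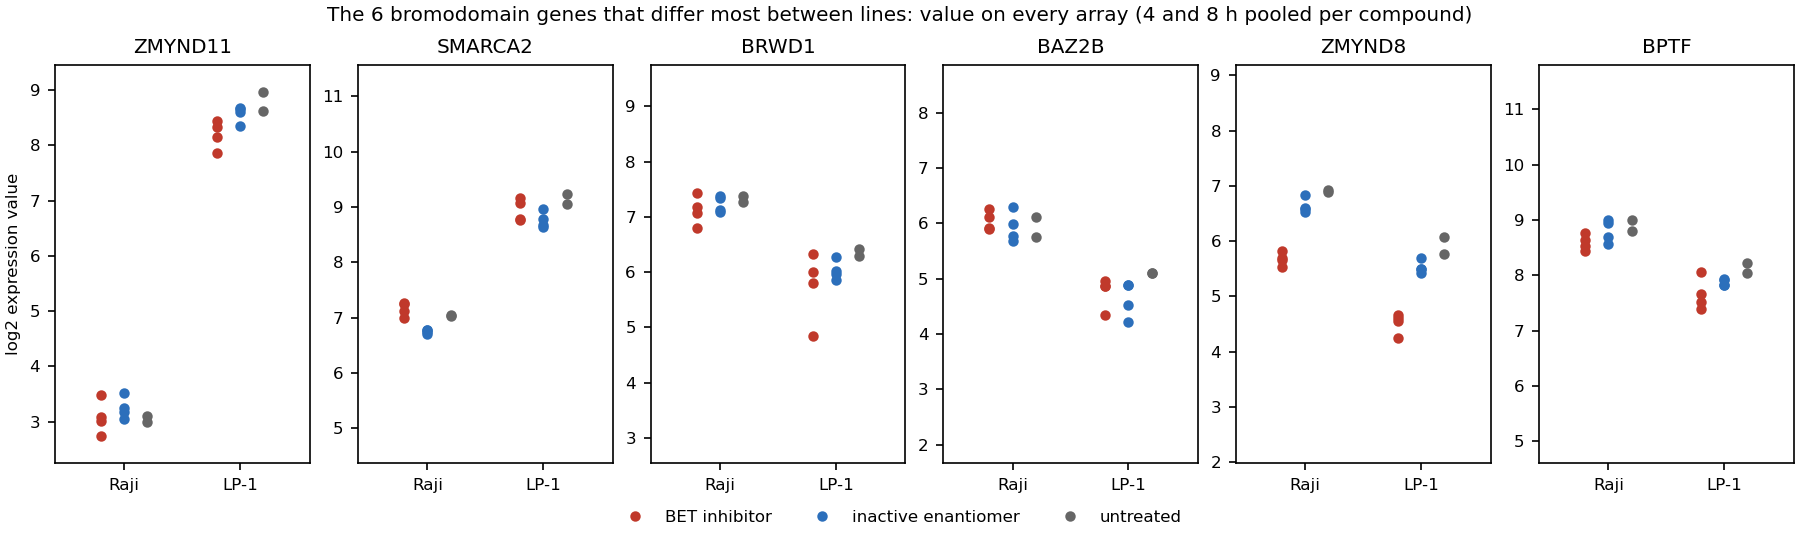
Log2 expression value (y axis) on each of 20 arrays for the 6 members with the largest difference between lines, Raji left of LP-1 and points coloured by treatment. ZMYND11 lies between 2.74 and 3.53 in Raji and between 7.87 and 8.96 in LP-1, and ZMYND8 is the member whose lines overlap.

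The remaining members that passed between lines differed by less. Lower in Raji were ATAD2 (-0.75), KAT2B (-0.74), BAZ1B (-0.74), CREBBP (-0.63), TRIM24 (-0.44), CECR2 (-0.33), BRD1 (-0.32), BRD9 (-0.22) and KAT2A (-0.19). Higher were BAZ1A (0.83), TRIM33 (0.81), KMT2A (0.66), PHIP (0.61), SP110 (0.61), TRIM28 (0.48), SP100 (0.37) and PBRM1 (0.20). For SP100 and SP110 the differences in untreated cells were -0.28 and 0.14 and did not pass. BRPF1, BRD8, BAZ2A, TAF1 and ATAD2B did not pass, with intervals that stayed between -0.25 and 0.61.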

How the data were processed

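Total RNA of 20 samples was hybridised to exon arrays after whole-transcript amplification. The deposited table holds log2 expression values for 22011 probe sets, made by the authors with Affymetrix Expression Console and RMA against hg19, per the submitters' processing notes, with no versions. Single-symbol probe sets number 14432, and 2408 have several symbols and 5171 none. Array medians were 5.13 to 5.39 and replicates correlated at r = 0.973 to 0.989. The labels call replicates biological, and 2 arrays per group limit the precision.

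One limma model (version 3.58.1, R 4.3.3) with a mean per group gave 20 comparisons, two-sided. P-values were adjusted by Benjamini and Hochberg's method across the whole table at a threshold of 0.05, with 10 residual degrees of freedom. It was tested on simulated data. Alternatives were quantile normalization, median centring, a filter on low values that left out 7337 probe sets and 2 members, an intensity trend, a replicate block, 1 line alone, the other KMT2A probe set and leaving out each array.

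Members and lists were chosen with earlier results of these data known. By rule, values on every array are given for members that passed in inhibitor over enantiomer, and ranges for the 6 largest differences between lines. SMARCA4, between lines, and individual partner genes were named after their values were seen. Promoter sequences are RefSeq's (GRCh38.p14), while the array data are on hg19.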

Additional observations from a re-analysis of the deposited data

How the results depend on the processing

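With 2 arrays per group, calls near the threshold depended on single arrays. Of the counts of members passed, fits on the arrays of 1 line alone gave 0 in LP-1 at 4 h, 1 at 8 h and 3 over both times, 1 in Raji at 8 h and 3 over both times for inhibitor over enantiomer, and 1 and 3 in LP-1 at 4 and 8 h for inhibitor over untreated cells. Such fits have fewer samples. Quantile normalization gave 7 in LP-1 at 8 h over the enantiomer, and 3 in LP-1 at 4 h and 4 and 5 in Raji at 4 and 8 h over untreated cells, and 1 for the response in Raji minus LP-1 at 8 h. Median centring gave 3 in LP-1 and 2 in Raji at 4 h over untreated cells. The filter on low values gave 8 in LP-1 at 8 h and 2 in Raji at 4 h over the enantiomer, and 3 and 5 in Raji at 4 and 8 h over untreated cells, and the intensity trend also gave 3 and 5 there. The cause of these shifts was not tested.

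The deviations of arrays with the same replicate number correlated at r = -0.0346 to 0.121 over pairs of groups in LP-1 and -0.160 to 0.0507 in Raji, so the numbers were not taken as pairs. The replicate block gave 4 in LP-1 and 2 in Raji at 4 h over untreated cells, and moved no other count by over 1.5 times, with 6 in LP-1 at 8 h over the enantiomer. Leaving out 1 array gave, for inhibitor over enantiomer, 0 to 7 and 2 to 5 in LP-1 at 4 and 8 h, 0 to 1 in Raji at both times, 3 to 5 in LP-1 over both times and 2 to 5 in Raji. Over untreated cells it gave 1 to 10 and 3 to 5 in LP-1 and 1 to 1 in Raji at both times. The response in Raji minus LP-1 gave 0 to 1 at 4 h, and 8 h minus 4 h in LP-1 gave 0 to 6, both highest without the second inhibitor replicate of LP-1 at 4 h. Raji over LP-1 gave 9 to 11 untreated and 22 to 25 over 5 conditions. The enantiomer over untreated cells stayed at 0 in all of these.

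Changes near 0 turned in sign. In LP-1 at 4 h ATAD2 was 0.13 after quantile normalization, 0.026 after centring, and -0.24 to 0.16 without 1 array. BRD8 was 0.17 and 0.0039 under these settings, and -0.28 to 0.16 without 1 array. Without 1 array, SMARCA2 was -0.10 to 0.19 there, and SP110 in Raji at 8 h was -0.0019 to 0.19.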
